A study of Canis lupus familiaris with 6 samples.

Results

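The G1 panel described here holds 10 genes that set whether a cell leaves the G1 phase: the D-type cyclins CCND1, CCND2 and CCND3, their kinases CDK4 and CDK6, the CDK inhibitors CDKN1A (p21) and CDKN1B (p27), the atypical cyclin CCNG2, the retinoblastoma gene RB1 and the transcription factor gene E2F1. Members were taken as the rows of the gene tables whose name equals one of these symbols. Of the 29822 genes in each table, 9 were found in this way, and E2F1, which matched no row, was not analysed here. All 9 passed the filter on low counts and were among the 15397 genes tested.

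The cells were CMM10, a line established from canine malignant melanoma, and RNA was sequenced from 3 libraries of cells under hypoxia and 3 of cells under normoxia. The labels name no genotype change or drug in either condition, and give no oxygen level, no length of exposure and no age or breed of the dog of origin. All libraries came from this single line, and the labels do not say whether the replicates were separate cultures, so the p-values measure the spread between these libraries, which may be technical. The question was which genes change when oxygen is low.

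In G1, D-type cyclins bind CDK4 or CDK6, and the complexes phosphorylate the RB protein. Phosphorylated RB releases E2F factors, which switch on cyclin E and the genes of DNA synthesis. The inhibitors p21 and p27 block CDK2 complexes and also bind the cyclin D kinases, and the INK4 family binds CDK4 and CDK6 directly. In melanoma this pathway is often altered, through loss of the INK4 locus or gain of CCND1 or CDK4. Cyclin G2 is unusual among cyclins, since its transcript is high in cells that are leaving the cycle.

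Libraries held 23196647 to 28804337 gene reads, and the hypoxia libraries were the deeper ones. Of 8 melanocyte markers, MITF, SOX10, DCT and SLC45A2 were expressed, PMEL was low, and TYR, TYRP1 and MLANA were near or at 0. The 8 summed to 167.7 to 181.0 TPM under hypoxia and 152.3 to 168.9 TPM under normoxia. TPM is the authors' level per exon length, used without TMM adjustment. That scaling bears on sums of TPM, but not on shares within a library. The 4 epithelial markers found summed to 1145 to 1292 TPM under hypoxia and 449.3 to 467.6 TPM under normoxia. KRT14 was the highest of them in both conditions, with a mean of 948.6 TPM under hypoxia and 193.2 TPM under normoxia. The other epithelial markers did not move together. CDH1 was higher under hypoxia (137.2 against 101 TPM) and EPCAM lower (144.7 against 162.7 TPM). KRT18 was low in both, at 1.26 TPM under hypoxia and 2.55 TPM under normoxia. Leukocyte markers summed to 485.6 to 519.4 and 494.1 to 522.6 TPM, nearly all of it CD79A, while PTPRC and CSF1R were near 0 and CD3E was at 0 TPM in both conditions. Fibroblast markers summed to 149.1 to 153.7 and 119.1 to 130.9 TPM, mostly COL1A1, and endothelial markers to 4.37 to 4.63 and 3.04 to 3.54 TPM. The part of these shifts in the results below was not tested.

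Under hypoxia 6 of the 9 genes were higher (CCNG2, CDKN1A, RB1, CDKN1B, CCND1 and CCND3), 2 were lower (CDK4 and CCND2), and CDK6 did not pass the test. Both larger changes were in genes linked with slowing of the cycle, CCNG2 at 2.29-fold and CDKN1A at 2.14-fold. The other called changes were under 1.5-fold, from 1.40-fold for RB1 down to 0.79 times the normoxia level for CDK4. Calls here are from edgeR's quasi-likelihood test on gene reads, at a Benjamini-Hochberg adjusted p below 0.05 over all genes tested ("edgeR adjusted p" from here on). Among all genes tested, 24.5% were called higher and 24.4% lower, so that 49.0% were called either way. A call combined with a change of over 1.5-fold was met by 12.2% of all genes and by 2 of the 9. The median log2 fold change was 0.30 over the 9 genes and 0.00 over all genes tested. With library size as the only scaling in place of the TMM method, the share of higher genes among all calls went from 50.1% to 38.8% and 5 of the 9 were called higher and 2 lower.

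**Figure D1:**
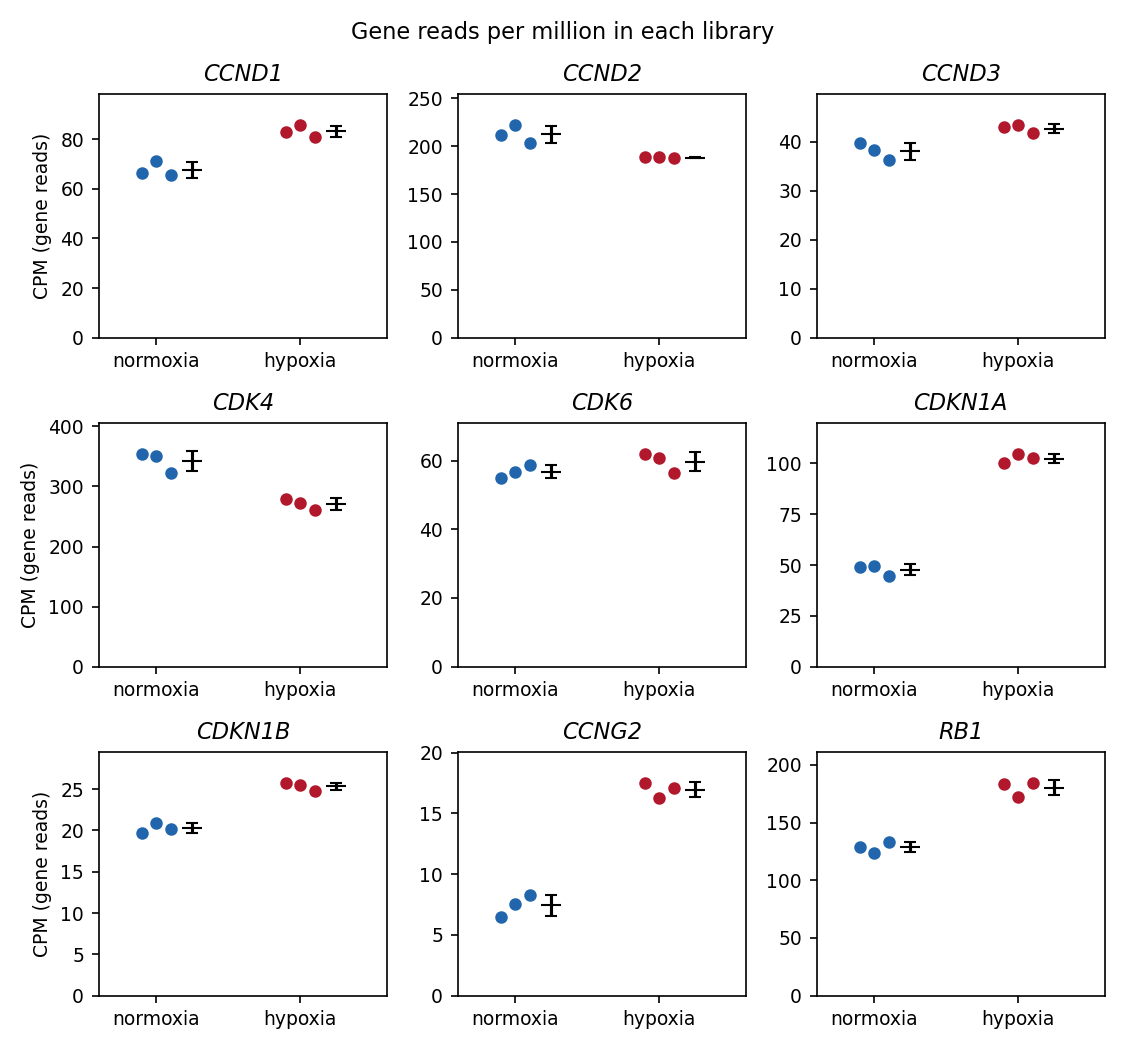
Gene reads in CPM (linear axes from 0) of the 9 genes in each library, with normoxia in blue and hypoxia in red. Black bars beside the points are the mean ± SD of 3 libraries. The groups are separate in each panel except that of CDK6.

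The CPM values of hypoxia and normoxia libraries did not overlap in 8 of the 9 genes, against 55.3% of all genes tested. In 6 all hypoxia libraries were above normoxia (27.8% of all genes) and in 2 below (27.5%). CPM is a gene's reads scaled to a common library size after TMM adjustment, and changes are log2 fold changes of hypoxia over normoxia with their SE.

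Cyclin D1 is the D-type cyclin most directly tied to mitogen signalling. CCND1 (chromosome 18, 48501899 to 48516005, CanFam3.1 build, as are all positions here) was at 83.0, 85.6 and 80.9 CPM in hypoxia replicates 1, 2 and 3 and at 66.2, 71.2 and 65.5 CPM in the normoxia replicates. Every hypoxia library was above every normoxia library, with means of 83.2 ± 2.32 and 67.6 ± 3.11 CPM (SD, n = 3 each). The log2 change was 0.30 ± 0.048 (edgeR adjusted p = 3.85e-06).

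CCND2, the second D-type cyclin (chromosome 27, 40564921 to 40594255), moved the other way. It was at 188.3, 188.3 and 187.4 CPM under hypoxia and at 211.9, 221.9 and 203.8 CPM under normoxia. The hypoxia libraries lay close together and below all normoxia libraries, and the change was -0.18 ± 0.037 (edgeR adjusted p = 1.63e-04). Introns held 73.3% of its gene reads. From exon reads alone the fall was larger, at -0.29 ± 0.053 (edgeR adjusted p = 1.54e-05).

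CCND3, the third D-type cyclin (chromosome 12, 10594712 to 10600891), was at 43.0, 43.3 and 41.7 CPM under hypoxia and 39.7, 38.2 and 36.2 CPM under normoxia. The groups were separate by a narrow margin, and the change was 0.17 ± 0.059 (edgeR adjusted p = 0.0200). This call was lost without normoxia replicate 3 (0.13, edgeR adjusted p = 0.107), without hypoxia replicate 1 (0.16, edgeR adjusted p = 0.0576) and without hypoxia replicate 2 (0.15, edgeR adjusted p = 0.0671). It was also lost with library size as the only scaling (0.10, edgeR adjusted p = 0.165).

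Set side by side per exon length, the D-type cyclins changed in their proportions while their sum in TPM, without TMM adjustment, moved little. The summed level was 207.7, 215.4 and 205.4 TPM in the hypoxia libraries and 207.3, 211.8 and 202.1 TPM in the normoxia libraries, ranges that overlap almost fully. The means were 209.5 ± 5.22 and 207.1 ± 4.85 TPM (n = 3 each, two-sided exact permutation p = 0.6). Within that sum, CCND1 made up 42.8%, 42.7% and 43.1% under hypoxia and 37.0%, 37.5% and 37.1% under normoxia. CCND2 made up 28.9% ± 0.33 under hypoxia and 36.7% ± 0.77 under normoxia, and CCND3 28.2% ± 0.29 and 26.1% ± 0.96. Each share was separate between the conditions, and each had an exact permutation p of 0.1, the smallest that 3 against 3 libraries can give. Under normoxia CCND1 and CCND2 thus stood level, whereas under hypoxia CCND1 stood above both other D-type cyclins.

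**Figure D2:**
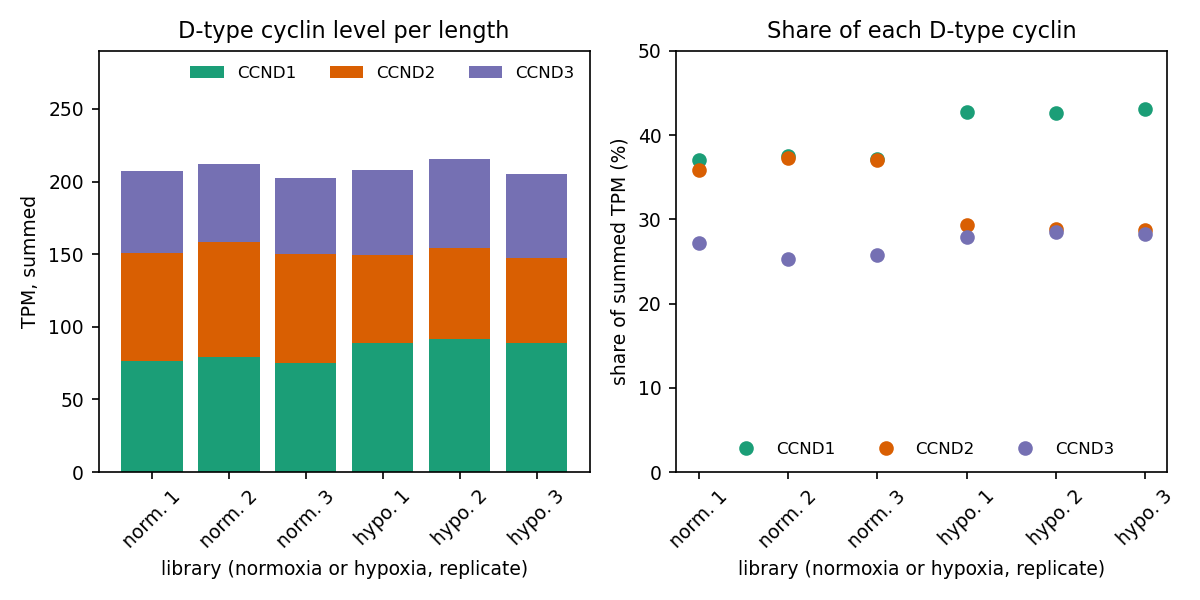
Left, TPM of CCND1, CCND2 and CCND3 stacked for each library (norm., normoxia and hypo., hypoxia, with replicate number). Right, the share of each gene in the summed TPM in percent: CCND1 and CCND2 overlie each other near 37% in the normoxia libraries and part in the hypoxia libraries, while the stacked height stays between 202.1 and 215.4 TPM.

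CDK4 is the main catalytic partner of the D-type cyclins in many cells. CDK4 (chromosome 10, 1812886 to 1815789) was at 279.5, 272.3 and 260.9 CPM under hypoxia and 353.4, 350.5 and 323.0 CPM under normoxia. All hypoxia libraries were below all normoxia libraries. The change was -0.34 ± 0.038 (edgeR adjusted p = 4.65e-09), a fall to 0.79 times the normoxia level.

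CDK6, the other cyclin D kinase (chromosome 14, 18188429 to 18419869), was at 61.8, 60.8 and 56.5 CPM under hypoxia and 54.9, 56.6 and 58.7 CPM under normoxia. The groups overlapped, and the change of 0.07 ± 0.052 did not pass (edgeR adjusted p = 0.250). Its 95% interval ran from -0.03 to 0.18, which holds small rises as well as no change. CDK4 was far the more abundant kinase per length, at 91.2% ± 0.84 of the summed CDK4 and CDK6 TPM under hypoxia and 93.2% ± 0.75 under normoxia (exact permutation p = 0.1, the smallest possible). The shares were separate by a narrow margin, at 92.15% in hypoxia replicate 3 and 92.4% in normoxia replicate 3. The sum of CDK4 and CDK6 fell from 602.1 ± 14.0 to 479.7 ± 15.8 TPM, with no overlap between the conditions (exact permutation p = 0.1).

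Among the inhibitors, the larger change was in CDKN1A, whose product p21 stops CDK2. CDKN1A (chromosome 12, 5745852 to 5892281) was at 100.1, 104.5 and 102.7 CPM under hypoxia and 49.1, 49.8 and 44.5 CPM under normoxia. Every hypoxia library was far above every normoxia library. The change was 1.10 ± 0.050 (edgeR adjusted p = 1.64e-18), larger in size than that of 95.2% of the genes tested. The gene model spans 146430 bases, and 64.3% of its reads lay in introns. It overlaps the models of RAB44, with 0 to 6 reads a library, and CPNE5, with 8 to 51. Exon-exon reads, which cross a splice junction, gave a change of 1.21 ± 0.091 (edgeR adjusted p = 4.80e-20).

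CDKN1B, whose product p27 accumulates in resting cells, rose less. CDKN1B (chromosome 27, 33611760 to 33612906) was at 25.7, 25.4 and 24.8 CPM under hypoxia and 19.7, 20.9 and 20.2 CPM under normoxia. The spread within each group was small against the gap between them, and the change was 0.32 ± 0.072 (edgeR adjusted p = 3.71e-04). In intron reads alone the change of 0.23 ± 0.16 did not pass (edgeR adjusted p = 0.276).

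Both inhibitors together rose from 82.8 ± 3.01 to 120.0 ± 2.06 TPM, without overlap (n = 3 each, exact permutation p = 0.1, the smallest possible). CDKN1A supplied 35.2%, 35.4% and 34.4% of that sum under hypoxia and a mean of 24.8% ± 0.95 under normoxia (exact permutation p = 0.1). CDKN1B thus remained the more abundant of the pair per length in every library. The exon model of CDKN1B is 597 bases long, against 2002 for CDKN1A, and a model that lacks untranslated sequence can shift such a comparison between genes.

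CCNG2 had the largest change of the 9 genes and the lowest level. CCNG2 (chromosome 32, 1720156 to 1726842) was at 17.5, 16.3 and 17.1 CPM under hypoxia and 6.49, 7.52 and 8.27 CPM under normoxia. These values rest on 453 to 493 and 172 to 207 gene reads. The lowest hypoxia library was well above the highest normoxia library. The change was 1.19 ± 0.11 (edgeR adjusted p = 3.30e-11), larger in size than that of 96.0% of the genes tested.

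RB1 encodes the protein that the cyclin D kinases inactivate. RB1 (chromosome 22, 3063239 to 3257726) was at 183.8, 172.5 and 184.0 CPM under hypoxia and 129.1, 124.0 and 133.1 CPM under normoxia. The groups were well apart, and the change was 0.48 ± 0.040 (edgeR adjusted p = 5.56e-12). Its model shares 2096 bases with that of ITM2B on the same strand. ITM2B was itself higher, at 306.1 ± 5.41 against 202.3 ± 7.30 CPM (0.60 ± 0.036, edgeR adjusted p = 2.35e-15), and its part in the RB1 value was not tested. Exon-exon reads of RB1 gave 0.40 ± 0.059 (edgeR adjusted p = 2.53e-08). RB1 also overlaps LPAR6, which had 18 to 22 reads a library.

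The tables split gene reads into exon and intron reads. Intron reads can come from unspliced RNA, and their source was not tested here. From exon reads 8 of the 9 genes were called (background 48.2% of 13458 genes), from exon-exon reads 7 (44.4% of 11288) and from intron reads 6 (34.4% of 13858). All 9 kept their direction in each class. CCND3 and CDKN1B were the called genes whose intron change did not pass, and CCND3 did not pass in exon-exon reads either. The change in exon reads was then set against that in intron reads of the same libraries. For CCND1 the exon change was 0.25 ± 0.050 and the intron change 0.52 ± 0.094, a difference (exon minus intron) of -0.27 ± 0.10. For CCND2 the difference was -0.18 ± 0.062 and for RB1 -0.18 ± 0.069. The smallest edgeR adjusted p was 0.0854, for CCND2, so 0 of the 9 were called by edgeR, against 5.62% of 12350 genes. At an unadjusted edgeR p under 0.05 there were 3 of the 9. The share of all genes at that threshold is not given here, so these 3 cannot be weighed against it. For CDKN1A the exon change was 1.06 ± 0.072 and the intron change 1.14 ± 0.063, and for CCNG2 these were 1.26 ± 0.11 and 1.00 ± 0.22. Both rises were thus present in exon and in intron reads.

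**Figure D3:**
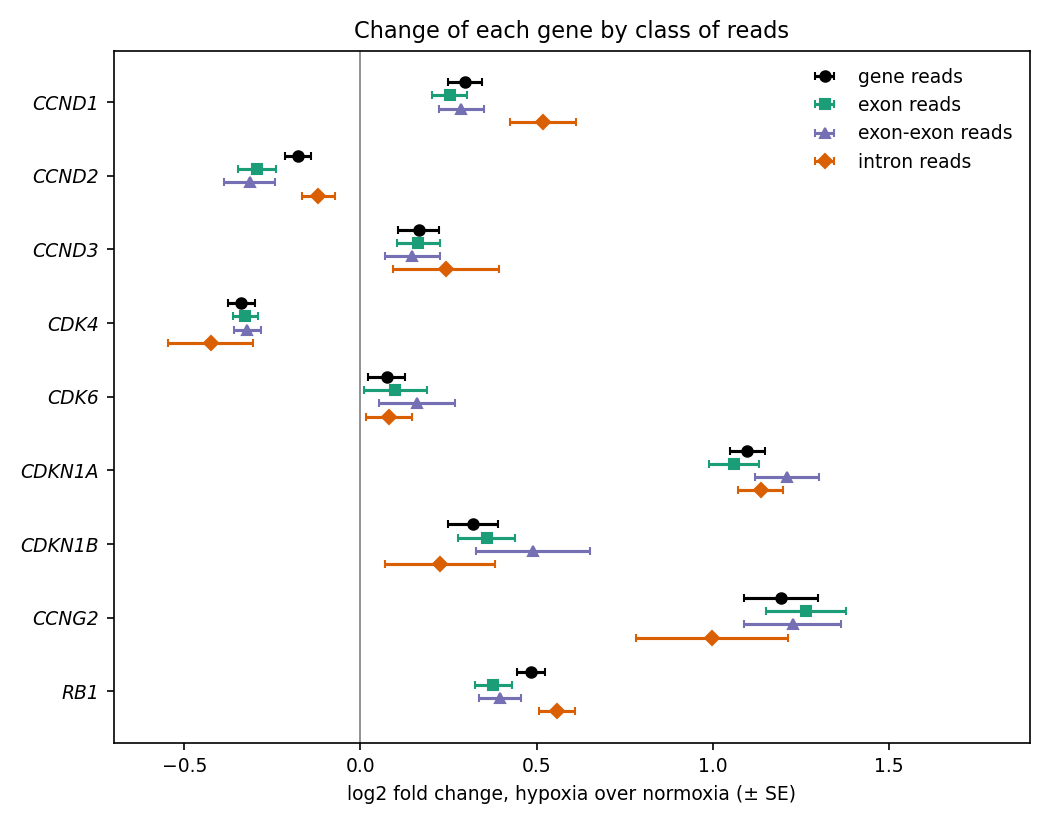
Log2 fold change of hypoxia over normoxia (± SE) for each gene from gene reads, exon reads, exon-exon reads and intron reads. The 4 markers of a gene lie on the same side of 0 in all 9 genes, and those of CDKN1A and CCNG2 lie near 1 or above.

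Per exon length, CDK4 led the panel in both conditions, at 437.3 ± 10.5 TPM under hypoxia and 561.4 ± 16.7 TPM under normoxia. Under hypoxia the order below it was CCND1 (89.8), CDKN1B (78.0), CCND2 (60.6), CCND3 (59.1), CDK6 (42.4), CDKN1A (42.0), RB1 (30.2) and CCNG2 (28.3 TPM). The neighbours CCND2 and CCND3 overlapped in range, as did CDK6 and CDKN1A. Under normoxia the order was CCND1 (77.1), CCND2 (76.1), CDKN1B (62.2), CCND3 (54.0), CDK6 (40.7), RB1 (23.8), CDKN1A (20.6) and CCNG2 (12.1 TPM), and there CCND1 and CCND2 overlapped. CDKN1B and CCND2 exchanged places between the conditions, and so did CDKN1A and RB1. The limit of exon models given for CDKN1A and CDKN1B also holds for this order. It holds as well for the shares among the D-type cyclins and between CDK4 and CDK6.

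**Figure D4:**
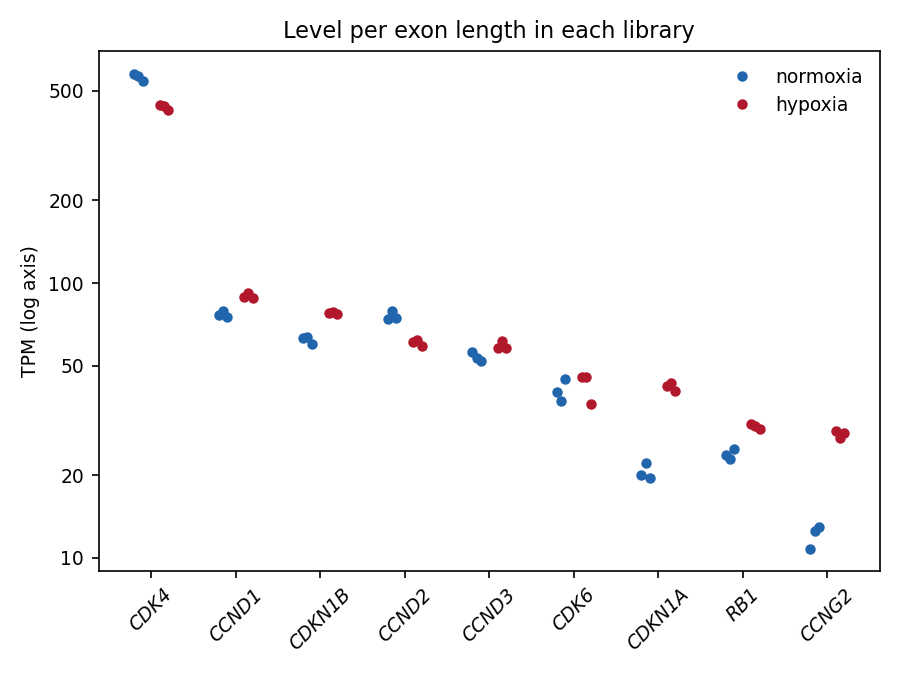
TPM of each gene in each library on a log axis, ordered by the hypoxia mean, with normoxia in blue and hypoxia in red. CDK4 stands at 425.3 TPM or above in all 6 libraries, and CCNG2 and CDKN1A show the widest gaps between the conditions.

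The genes whose profile over the 6 libraries was most like that of CCNG2, by the root mean square difference of centred log2 CPM among 9150 named genes with a mean of at least 10 CPM, were PDE9A (0.035), TRABD2B (0.083) and CRBN (0.085). For CCND1 they were CYB5R3 (0.022), ABRACL (0.027) and CTSZ (0.028). With 6 libraries in 2 conditions, such a profile is set mostly by the size of the change.

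The genes around this panel were followed in lists. In the CDK2 branch, which acts after the cyclin D kinases, 4 of 10 tested genes fell and 1 rose, with a median log2 change of -0.12. CDC25A, the phosphatase that activates CDK2, fell from 28.7 ± 0.88 to 19.4 ± 0.96 CPM (-0.57 ± 0.072). Cyclin A2, CCNA2, was at 75.6, 71.3 and 72.7 CPM under hypoxia and 107.2, 106.9 and 104.5 CPM under normoxia (-0.54 ± 0.043). The gene that rose was WEE1, the kinase that holds CDKs inactive (0.43 ± 0.038), while CDK2 itself was at 39.7 ± 2.04 and 39.8 ± 1.34 CPM (-0.01 ± 0.060).

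Of 3 further genes tested that carry a CDK inhibitor symbol (CDKN2C, CDKN2D and CDKN3), 1 fell and 0 rose. The median of -0.13 was the value of CDKN3, which is grouped here by symbol alone and did not pass. The one that fell was the INK4 gene CDKN2C (-0.21 ± 0.048), which did not pass in exon-exon reads (-0.18, edgeR adjusted p = 0.210). CDKN1C, CDKN2A and CDKN2B matched no row and were not analysed here.

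Of 18 pocket protein, E2F, DP and DREAM complex genes, 11 fell and 2 rose, with a median of -0.15. From exon-exon reads 6 fell, where 44.4% of 11288 genes were called either way, against 49.0% of 15397 from gene reads. E2F8, a repressor of the E2F family, was at 30.5, 29.5 and 30.1 CPM under hypoxia and 49.7, 49.2 and 49.6 CPM under normoxia, a fall of 0.72 ± 0.058 on the log2 scale. E2F4, which acts with the pocket proteins in resting cells, fell by 0.49 ± 0.050, and its model overlaps that of ELMO3. TFDP2, a dimer partner of E2F factors, rose from 26.1 ± 1.51 to 53.6 ± 2.87 CPM (1.03 ± 0.063), with no overlap between the conditions. The other gene that rose was RBL2 (0.27), the pocket protein p130.

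Of 9 E2F targets needed for S phase entry, 8 fell and 0 rose, with a median of -0.21. CHAF1A, a histone chaperone subunit, fell by 0.31, the ribonucleotide reductase subunit RRM2 by 0.26 and the DNA clamp PCNA by 0.24 on the log2 scale. The remaining gene was TYMS (0.08, edgeR adjusted p = 0.0938). It passed as higher from exon reads (0.09, edgeR adjusted p = 0.0439), from exon-exon reads (0.12, edgeR adjusted p = 0.0209) and without normoxia replicate 1 (0.10, edgeR adjusted p = 0.0479). Among 15 genes that act in the ubiquitin turnover of G1 regulators, mostly in ligases, 3 fell and 1 rose, with a median of -0.03. From exon-exon reads 1 fell and 2 rose, and with library size as the only scaling 4 fell and the higher call was lost. SKP2, the subunit that targets p27 for degradation, fell from 38.7 ± 2.49 to 28.95 ± 1.94 CPM (-0.42 ± 0.067). The other called genes of this list were RBX1 (0.15), which did not pass with library size as the only scaling (0.09, edgeR adjusted p = 0.116), CUL1 (-0.12), which did not pass without normoxia replicate 1 (-0.09, edgeR adjusted p = 0.118), and SKP1 (-0.10). From exon-exon reads neither CUL1 (-0.10, edgeR adjusted p = 0.0675) nor SKP1 (-0.07, edgeR adjusted p = 0.117) passed. The SKP1 call was lost without hypoxia replicate 2 (-0.08, edgeR adjusted p = 0.111), hypoxia replicate 3 (-0.09, edgeR adjusted p = 0.0614) or normoxia replicate 2 (-0.10, edgeR adjusted p = 0.0580).

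Of 8 genes in the FOXO list, 4 rose and 0 fell, with a median of 0.30. FOXO3, a factor that drives CDKN1B and CCNG2 in many cells, was at 107.0, 108.0 and 113.9 CPM under hypoxia and 69.6, 69.6 and 69.9 CPM under normoxia (0.65 ± 0.044), while FOXO1 (-0.17) and FOXO4 (-0.15) did not pass. BCL6, a transcriptional repressor, rose by 0.83 ± 0.071, and its model overlaps that of RTP2. PIK3IP1 (0.81 ± 0.29) rested on 24 to 63 reads a library, and was lost without hypoxia replicate 3 (0.67, edgeR adjusted p = 0.0961), normoxia replicate 2 (0.65, edgeR adjusted p = 0.0919) or normoxia replicate 3 (0.74, edgeR adjusted p = 0.0589). Its call was also lost with DESeq2 (0.81, adjusted p = 0.0513), with limma (0.69, adjusted p = 0.0583) and from intron reads (0.59, edgeR adjusted p = 0.136). Of 11 genes of MAP kinase output, the pathway that drives CCND1 in melanoma, 3 fell and 1 rose, with a median of -0.06. With library size as the only scaling 5 fell. FOSL1, an AP-1 subunit, fell by 0.76 ± 0.071, ETV5 fell by 0.23 ± 0.071, and SPRY4, a feedback inhibitor, rose from 4.41 ± 0.41 to 8.77 ± 0.72 CPM (0.99 ± 0.14). The counts of these lists from gene reads after TMM scaling are read beside the 24.5% and 24.4% of all genes called higher and lower. When TMM was left out, calls over all 15397 genes shifted downward, to 3076 rises and 4862 falls (median log2 change -0.07). The list counts given for that scaling, such as the 5 falls in MAP kinase output, are read beside this shift. Those from exon-exon reads are read beside 44.4% of 11288 genes called either way, with 51% of these calls higher. In RNA from whole cultures, a shift in the share of cells in each phase and a change in RNA per cell cannot be told apart.

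**Figure D5:**
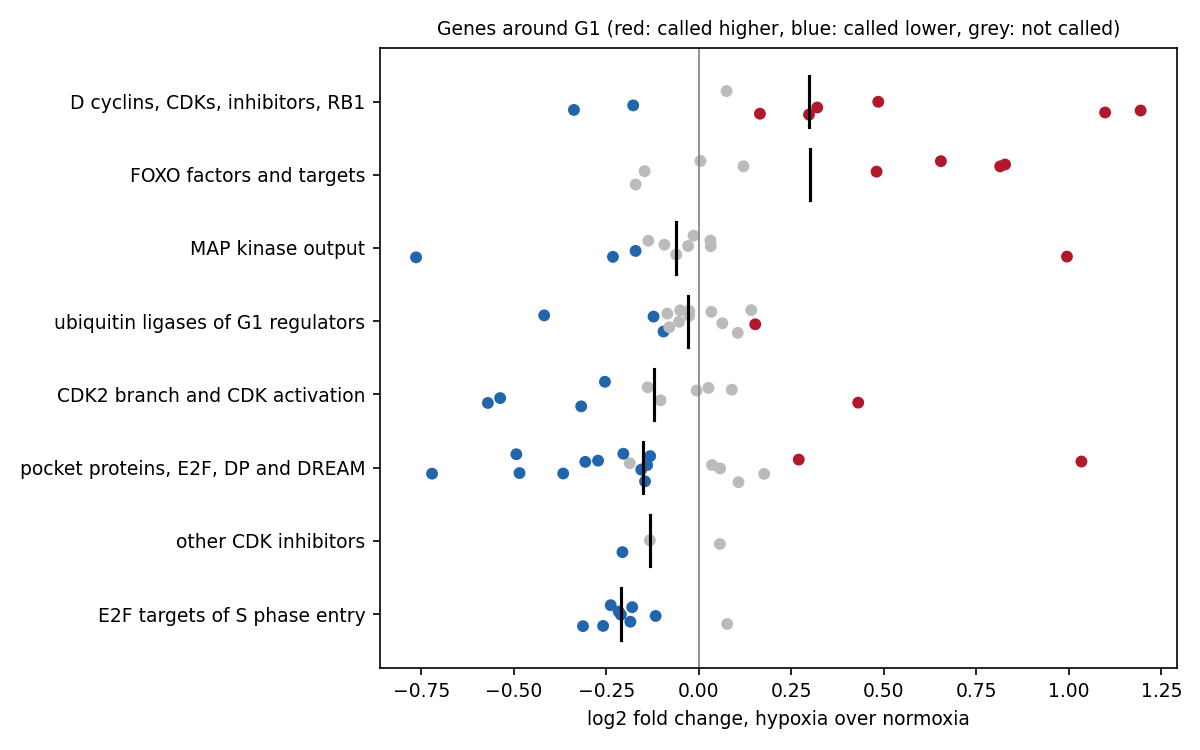
Log2 fold change of hypoxia over normoxia for each tested gene of the panel (top row) and of the lists around it. Red points were called higher, blue lower and grey not called, vertical position within a row has no meaning, and the black bar is the row's median, from 0.30 in the panel and in the FOXO list to -0.21 in the E2F targets.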

How the data were processed

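Polyadenylated RNA was sequenced as 3 hypoxia and 3 normoxia libraries. The treatment label gave the group of a library and the title its replicate number. The genome build, per the submitters' processing notes, was CanFam3.1, while no source used here names the aligner, the counter or its strand setting. Per the file headers, the deposited counts give each gene's reads, with those in exons, across exon junctions and in introns also listed apart. The authors' expression value is TPM, per the file headers. RPKM was also deposited and was not used.

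Total gene reads were filtered with filterByExpr, scaled by TMM and tested with edgeR's quasi-likelihood test (robust, no covariates), with Benjamini-Hochberg adjustment over the 15397 genes kept. SE is the log2 fold change over the root of F. Exon minus intron change was the interaction of read class and condition, with library as a term, for genes with at least 10 reads of each class in 3 libraries. For shares of TPM the test was an exact permutation of libraries, two-sided. Intervals are at 95%.

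The kit does not mark strand, so overlapping and antisense genes share reads. Members and lists were chosen with earlier results of these data known. Named in the lists were the 3 called genes with the largest change. Other genes named were chosen after their values were seen. E2F1, CKS2, CDKN1C, CDKN2A, CDKN2B and KRT8 had no row of that name, and some list genes are not reported here. Tests were checked on simulated data. No sequence was used. Fits used edgeR 4.0.16 with DESeq2 1.42.0 and limma 3.58.1 as alternatives, under R 4.3.3 with the package data.table (1.17.8). Figures used Python 3.11.15 with matplotlib 3.10.9 and pandas 2.3.3.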

Additional observations from a re-analysis of the deposited data

How the results depend on the processing

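The results were recomputed with library size alone or DESeq2 size factors as scaling, with DESeq2, without a count filter, from exon or uniquely mapped reads, with limma on log2(TPM + 1), with a replicate block and without each library in turn. Exon-exon and intron reads were added after seeing the data. CCND1, CCND2, CCNG2, CDK4, CDKN1A and RB1 kept their direction and call in all of these, and CDK6 stayed uncalled and positive. Beyond the settings named with CCND3 and CDKN1B above, CCND3 was also lost with DESeq2 (0.16, adjusted p = 0.0506) and limma (0.13, adjusted p = 0.0584). Without each library in turn, 5 to 6 of the 9 genes were higher and 2 lower, and over all genes 3416 to 3598 were higher and 3361 to 3585 lower. Of the E2F targets, 6 to 8 were then lower and 0 to 1 higher. In the pocket protein list 8 to 11 were lower and 2 higher. The CCND1 share of the D-type cyclins rose by 5.52 to 5.77 percentage points, the CDK4 share changed by -2.54 to -1.77 and the CDKN1A share by 9.75 to 10.7 points in these runs. Same-numbered libraries did not deviate together (r = -0.087, -0.013 and -0.031), so the numbers were not taken as pairs. With the replicate block, 3769 genes were higher and 3793 lower, and 6 and 2 of the 9, so no call on the panel changed. From intron reads, 2 genes of the CDK2 branch, 1 gene of the ubiquitin list and 5 E2F targets fell, and 1 gene of the pocket protein list rose. Among all genes, 34.4% of 13858 were called either way from intron reads, against 49.0% of 15397 from gene reads. Of the named list genes, CDKN2C, RBX1, CUL1, SKP1, RBL2, ETV5 and PIK3IP1 kept their direction from intron reads and did not pass. CCNG2 had the fewest gene reads of the 9, with 1977 over all libraries.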
